A study of Mus musculus with 2 samples.

Results

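The kinesin motor family was taken as every gene that both scanner files name Kif followed by a number, which gave 31 of the 28786 genes on the array. The genes named Kifap and Kifc were not members. Of the 31 kinesins, 28 were well above background on both arrays and could be compared, 1 was well above background on a single array, and 2 were on neither. The members were sorted by role into 10 mitotic kinesins, 13 transport kinesins and 8 ciliary and other kinesins, and the first 2 classes were set against each other.

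The RNA came from Panc02 tumours grown in C57BL/6 mice, and Panc02 is a line of mouse pancreatic cancer cells. The animals were 3 weeks old when housing began, and tumours were taken 5 weeks after injection. One group lived in an enriched environment, which offers more stimulation than ordinary caging, and the other in a standard environment. The strain, the tumour cells and the times were common to both groups. Each housing gave 1 pool from 6 mice and 1 one-colour array, so there were no replicates and no test was possible. Every value describes these 2 pools.

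Kinesins are motor proteins that use ATP to move along microtubules or to take their ends apart. Mitotic kinesins build the spindle, move and align chromosomes and complete the division of the cell, and their transcripts are abundant in dividing cells. Transport kinesins carry vesicles, organelles and RNA towards microtubule ends, many of them in neurons, and others serve the cilium, the antenna-like organelle of resting cells.

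A level below is a log2 processed intensity from which its array's 75th percentile was taken away, and a difference is the level in the enriched environment pool minus that in the standard environment pool. Levels of different genes come from different probes and are not set against each other. Among 43379 non-control spots, 77.4% exceeded background well on the enriched environment array and 77.2% on the standard environment array, with none saturated. The lowest level well above background was -6.21 on the enriched and -5.68 on the standard environment array. The carcinoma epithelium markers Krt7, Krt8, Krt18, Krt19, Epcam, Cdh1 and Muc1 were all well above background in both pools.

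The mitotic kinesins were higher in the enriched environment pool without exception, whereas the transport kinesins were mostly lower. All 9 measured mitotic kinesins had a positive difference, from 0.50 to 1.59 with a median of 0.71, or 1.63-fold. Of the 12 measured transport kinesins 4 were higher and 8 lower, from -1.64 to 0.79 with a median of -0.34, or 1.26-fold lower. Over all 20852 genes measured on both arrays the median difference was 0.03, and 52.3% of genes were higher and 47.7% lower in the enriched environment pool.

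The medians of the mitotic and the transport kinesins lay 1.04 apart on the log2 scale, or 2.06-fold. Of the transport kinesins 11 of 12 lay below the lowest mitotic kinesin, Kif2c, and only Kif13b lay above it. This depended on the classes, because Kif2a, which also works at spindle poles, was placed among the ciliary and other kinesins. With Kif2a at 0.056 as the lowest mitotic kinesin, Kif5b at 0.059, Kif3a at 0.11, Kif3b at 0.34 and Kif13b lay above it. The other transport kinesins lay below. Counted as transport, Kif21b at 0.38 lay above Kif2a too, and Kif21a at -0.03 below. Differences of 2-fold or more upwards were found in 3 mitotic kinesins, no transport kinesin and 1 ciliary or other kinesin, beside 5.71% of all genes. Downwards, 4 transport kinesins and no member of another class passed 2-fold, beside 9.46% of all genes. Just beyond the 2-fold line lay Kif1c at -1.01, Kif18a at 1.06 and Kif5c at -1.11, and just short of it Kif22 at 0.88. In tumour RNA of this kind, fewer cells of a type and less RNA per cell cannot be told apart.

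**Figure D1:**
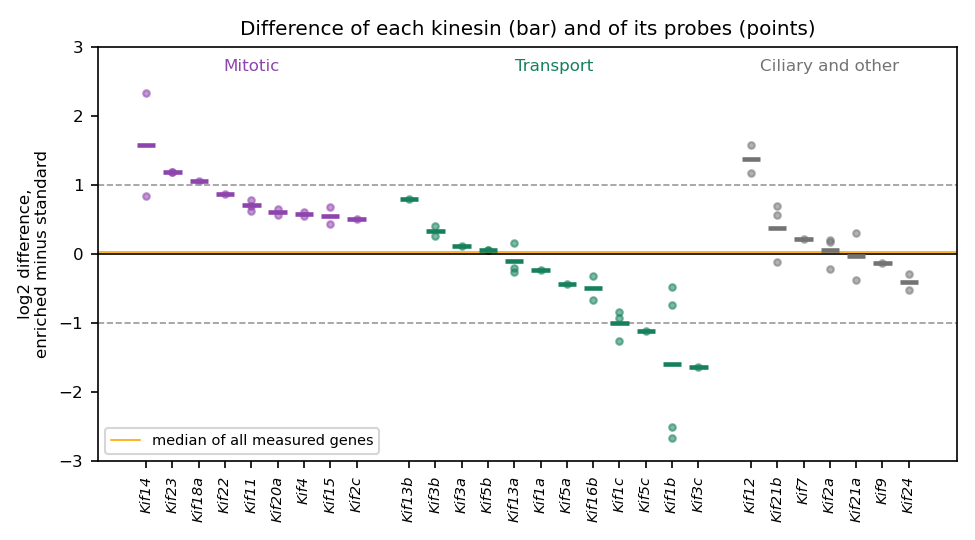
Log2 difference between the enriched and the standard environment pool for the 28 measured kinesins, as the gene's mean (bar) and its single probes (points). Dashed lines mark 2-fold, and the orange line the median of all measured genes, 0.03. All 9 mitotic kinesins lie above 0, 4 transport kinesins lie below the lower dashed line, and the probes of Kif1b and Kif14 lie far apart.

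Other transcripts moved with this split. The 7 carcinoma epithelium markers had positive differences with a median of 1.85, and took 1.10% of the summed signal in the enriched and 0.279% in the standard environment pool. All 6 skeletal muscle markers, Ckm, Acta1, Mb, Myh4, Tnnt3 and Actn2, were lower, with a median difference of -8.15, with 0.0147% of the summed signal in the enriched and 2.04% in the standard environment pool. All 4 erythroid markers were lower, with a median difference of -5.59 and 0.00361% of the signal in the enriched and 0.169% in the standard environment pool. Their part in the kinesin differences was not tested.

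The kinesins that organise the spindle differed by 0.50 to 1.06. Kif11, the tetrameric motor that pushes the spindle poles apart, was at -2.60 in the enriched and at -3.30 in the standard environment pool, a difference of 0.71 ± 0.08 (SD over 3 probes). Kif15, which can stand in for Kif11, differed by 0.56 ± 0.17 (SD over 2 probes), with levels of -2.85 and -3.41 in the enriched and the standard environment pool. Probes of 1 gene share their RNA, so such an SD is not a spread between mice. It holds technical error and, where probes report different transcripts, differences between those transcripts.

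Motors that work at the ends of microtubules were higher in the enriched environment pool as well. Kif2c, which takes microtubules apart at the centromere, was at -2.02 in the enriched and at -2.52 in the standard environment pool, and its difference of 0.50 was the smallest of the class. Kif18a, which damps chromosome movements at the spindle equator, was at -1.12 in the enriched and at -2.18 in the standard environment pool, a difference of 1.06 or 2.08-fold from 1 probe. A second Kif18a probe was not well above background on either array, and with it the gene's difference was 0.73.

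Both chromokinesins, the motors that sit on chromosome arms, were brighter in the enriched environment pool. Kif22 was at 2.99 in the enriched and at 2.12 in the standard environment pool, a difference of 0.88. Kif4, which also sets the length of the central spindle, was at -0.71 in the enriched and at -1.28 in the standard environment pool, a difference of 0.58 ± 0.04 (SD over 2 probes that partly overlap).

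The motors of cytokinesis included the furthest differences of the class. Kif23, which with Racgap1 forms the centralspindlin complex that bundles the midzone, was at 0.69 in the enriched and at -0.51 in the standard environment pool. Its difference was 1.19, or 2.29-fold, and its 2 neighbouring probes read 1.20 and 1.19. Kif20a, which brings the chromosomal passenger complex to the midzone, was at 1.71 in the enriched and at 1.10 in the standard environment pool, a difference of 0.61. Its 2 probes overlap and read 0.66 and 0.57.

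Kif14, which recruits citron kinase to the midbody, had the largest mean of the mitotic kinesins and also the least even probes. Its brighter probe was at -0.66 in the enriched and at -1.50 in the standard environment pool, a difference of 0.84. The dimmer probe was at -2.98 in the enriched and at -5.31 in the standard environment pool, close to the lowest level well above background there, and differed by 2.34. The mean of 1.59 thus depended on the dim probe, and with the brightest probe alone Kif14 was below 2-fold. Kif2b, a relative of Kif2c known mainly from the testis, was not well above background on either array.

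Several probes that the file lists under other names also report mitotic kinesins. A probe named 3000004C01Rik, which the RefSeq table assigns to Kif18b, a motor that trims astral microtubules, differed by 0.69. The 3 probes of Mphosph1, the older name of Kif20b, a motor of late cytokinesis, differed by 0.93, 1.01 and 1.10. A probe that the file describes as kinesin superfamily protein 23 was at -3.48 in the enriched and at -5.01 in the standard environment pool, a difference of 1.53 in the direction of the Kif23 probes. These probes were outside the rule and are not in the counts above.

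**Figure D2:**
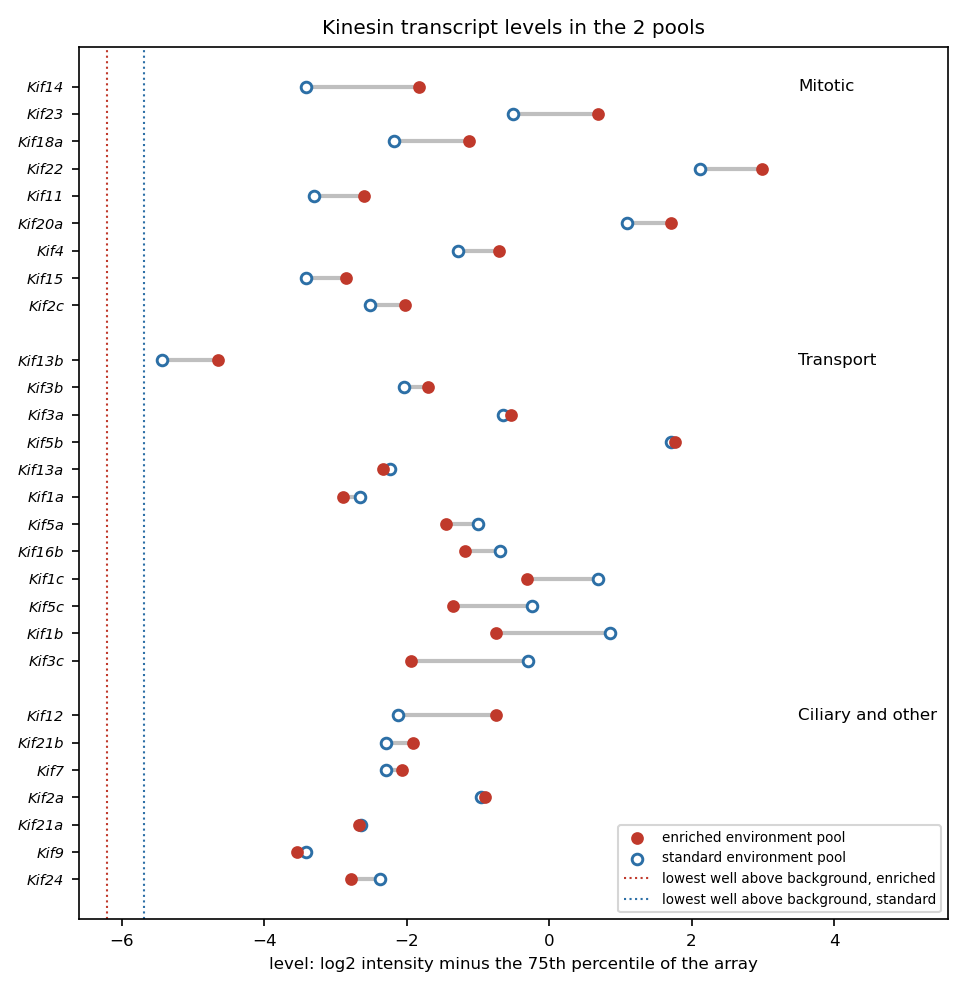
Levels of the 28 measured kinesins in the enriched environment pool (filled) and the standard environment pool (open), in log2 relative to the 75th percentile of each array, by class and by falling difference. Dotted lines mark the lowest level well above background, -6.21 on the enriched and -5.68 on the standard environment array, and Kif13b lies nearest to them.

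The genes that work with the mitotic kinesins were higher in the enriched environment pool too. All 19 measured partners and regulators had a positive difference, beside 52.3% of all genes. They ran from 0.34 to 1.13 with a median of 0.83. A 2-fold difference upwards was passed by 4 of them, beside 5.71% of all genes. Cit, the citron kinase bound by Kif14, differed by 1.13, and Kifc1, the minus-end directed motor that focuses spindle poles, by 1.12. Ndc80, which ties kinetochores to microtubules, differed by 1.08 and Cdca8, a chromosomal passenger protein, by 1.02. Cenpe, the kinetochore kinesin, differed by 0.96, and Racgap1, the partner of Kif23, by 0.87. The smallest difference was that of Nusap1, a microtubule bundling protein, at 0.34.

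General proliferation genes were read beside the motors. All 13 measured genes of that list were higher, beside 52.3% of all genes. They ran from 0.23 for Ccna2 to 1.16 for Foxm1, a transcription factor of mitotic genes, with a median of 0.83. Top2a, the topoisomerase of dividing cells, differed by 0.99, as did Mcm3, a part of the replicative helicase, and Mki67, the proliferation antigen, by 0.39. These lists and the kinesins come from the same 2 arrays, so they are not separate support for one another.

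The promoters of the kinesins were read from the RefSeq table for GRCm38.p6, which holds the 250 bases before and the 50 bases after the start of 26 of the 31 members. They were searched on both strands for TTTGAA, the letters of a cell cycle homology region, an element of late cell cycle promoters, and for CCAAT, the box bound by nuclear factor Y. A few promoters are shown because they carry the contrast between the classes, with the matched letters in capitals. They are those of 4 mitotic kinesins with both motifs (Kif23, Kif22, Kif11 and Kif4), of the mitotic kinesin without either (Kif18a) and of a transport kinesin (Kif1b). TTCAAA and ATTGG are the same motifs on the other strand.
Kif23: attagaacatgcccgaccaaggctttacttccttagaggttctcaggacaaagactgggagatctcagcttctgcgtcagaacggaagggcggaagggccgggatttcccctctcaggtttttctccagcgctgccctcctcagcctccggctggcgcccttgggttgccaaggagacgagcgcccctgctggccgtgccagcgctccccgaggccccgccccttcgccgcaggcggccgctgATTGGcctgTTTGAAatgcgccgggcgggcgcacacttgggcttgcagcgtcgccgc
Kif22: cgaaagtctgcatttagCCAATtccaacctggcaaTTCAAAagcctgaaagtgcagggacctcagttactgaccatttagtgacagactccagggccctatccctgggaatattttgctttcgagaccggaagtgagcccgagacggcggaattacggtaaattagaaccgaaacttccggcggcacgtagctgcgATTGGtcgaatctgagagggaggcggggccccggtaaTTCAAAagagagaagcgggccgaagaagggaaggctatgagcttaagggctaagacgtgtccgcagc
Kif11: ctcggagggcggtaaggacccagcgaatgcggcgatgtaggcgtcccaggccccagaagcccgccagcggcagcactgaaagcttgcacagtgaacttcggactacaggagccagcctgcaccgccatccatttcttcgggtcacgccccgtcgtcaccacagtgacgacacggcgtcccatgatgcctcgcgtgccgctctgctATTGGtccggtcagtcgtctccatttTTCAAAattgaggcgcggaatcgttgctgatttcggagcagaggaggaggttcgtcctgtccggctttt
Kif4: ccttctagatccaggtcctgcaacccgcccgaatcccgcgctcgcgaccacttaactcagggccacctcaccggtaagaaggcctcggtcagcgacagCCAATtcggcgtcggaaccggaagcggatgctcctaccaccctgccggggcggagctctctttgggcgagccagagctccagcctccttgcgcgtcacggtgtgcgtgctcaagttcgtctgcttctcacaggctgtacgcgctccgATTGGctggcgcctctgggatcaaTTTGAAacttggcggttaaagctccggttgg
Kif18a: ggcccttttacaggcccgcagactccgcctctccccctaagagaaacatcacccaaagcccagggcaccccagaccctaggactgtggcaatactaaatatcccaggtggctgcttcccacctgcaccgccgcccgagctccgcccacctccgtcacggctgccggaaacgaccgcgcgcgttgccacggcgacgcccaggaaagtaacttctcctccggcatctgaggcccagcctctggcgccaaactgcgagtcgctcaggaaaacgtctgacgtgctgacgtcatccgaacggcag
Kif1b: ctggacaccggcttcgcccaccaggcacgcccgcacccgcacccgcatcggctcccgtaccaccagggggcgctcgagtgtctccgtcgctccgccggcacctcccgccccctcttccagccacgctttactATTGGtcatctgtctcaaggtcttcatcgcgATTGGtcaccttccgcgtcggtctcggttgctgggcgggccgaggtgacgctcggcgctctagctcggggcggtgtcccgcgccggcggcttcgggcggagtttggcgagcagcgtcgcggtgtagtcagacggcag
The Kif23 promoter is chr9:61946750-61947049 on the minus strand, that of Kif22 chr7:127042371-127042670 on the minus strand and that of Kif11 chr19:37376132-37376431 on the plus strand. The Kif4 promoter is chrX:100625815-100626114 on the plus strand, that of Kif18a chr2:109280488-109280787 on the plus strand and that of Kif1b chr4:149307684-149307983 on the minus strand.

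TTTGAA was found in 7 of the 8 measured mitotic kinesins with a promoter in the table, in 0 of 9 transport kinesins and in 0 of 6 measured ciliary and other kinesins. Among the members that were not measured, Kif27, a ciliary kinesin, held 3 matches and Kif2b and Kif17 held none. Of all 32851 promoters of the same length in the table, 17.9% held it. Each kinesin was counted by its first listed start only, while the shares over all promoters count every listed start. CCAAT was found in 5 of 8 mitotic, 3 of 9 transport and 1 of 6 ciliary and other kinesins, and in 37.4% of all promoters. Both motifs together were present in 5 of 8 mitotic kinesins and in 6.95% of all promoters. In no member did the motifs overlap.

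The place of the motifs was alike in some of these promoters. In Kif22, Kif15 and Kif11 a TTTGAA match began 17, 19 and 19 bases before the start. In Kif23 and Kif4 it lay just past the start, from base 3 and base 20. A CCAAT match lay upstream of it in Kif22, Kif11, Kif23 and Kif4, which are shown above. Kif14 and Kif2c held the letters further upstream, 228 and 103 bases before the start. Kif18a, whose difference was 2.08-fold over its 1 measured probe, held neither motif in this window. A match describes these letters and is not evidence of binding.

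Among the transport kinesins, the largest differences were in Kif3c, Kif1b, Kif5c and Kif1c. Kif3c, a kinesin-2 motor that pairs with Kif3a and is known from neurons, was at -1.93 in the enriched and at -0.30 in the standard environment pool. It differed by -1.64, or 3.11-fold lower. A second Kif3c probe read -6.50 in the enriched environment pool, where it was not well above background, and -4.73 in the standard environment pool, where it was.

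Kif5c and Kif1c were near each other in their differences. Kif5c, a conventional kinesin heavy chain of neurons, was at -1.35 in the enriched and at -0.24 in the standard environment pool, a difference of -1.11 from 1 probe. A second, dim probe was above background on the enriched environment array alone and read -5.65 on both arrays, and with it the gene's difference was -0.56. Kif1c, a broadly expressed motor of vesicles and RNA, was at -0.31 in the enriched and at 0.69 in the standard environment pool, a difference of -1.01 ± 0.22 (SD over 3 probes).

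The probes of Kif1b, which carries mitochondria and synaptic vesicle precursors through different protein forms, read apart by transcript. The 2 probes for transcript variant 1 were at -0.74 and -1.81 in the enriched environment pool, and at 1.77 and 0.86 in the standard environment pool. Their mean difference was -2.59 ± 0.11 (SD over 2 probes), or 6.00-fold lower. The 2 probes for transcript variant 2 were at 1.25 and -1.66 in the enriched environment pool, and at 1.72 and -0.93 in the standard environment pool. Their mean difference was -0.60 ± 0.18 (SD over 2 probes), or 1.52-fold lower. The 2 variants thus differed by 1.98 on the log2 scale, and no probe of one overlapped in difference with a probe of the other.

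On mm7, the build of the array design, the Kif1b probes lie on the minus strand of chromosome 4. Those of variant 1 lie from 148227174 to 148227233 and from 148225749 to 148225808, and those of variant 2 from 148167632 to 148167691 and from 148166633 to 148166692. The variant 1 probes are therefore 58.1 kb upstream in the direction of transcription. The files do not say which protein form each variant encodes. Of 267 genes with measured probes for several RefSeq transcripts, 8 had transcripts at least as far apart as Kif1b. Of 6608 genes with several measured probes, 1.04% had probes spread at least as widely. These genes were not matched to the 4 probes of Kif1b, and a range tends to widen with more probes. The gene's mean of -1.59 is a mix of the 2 readings. Beside it, the skeletal muscle markers had a median difference of -8.15, and their part in the variant 1 value was not tested.

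**Figure D3:**
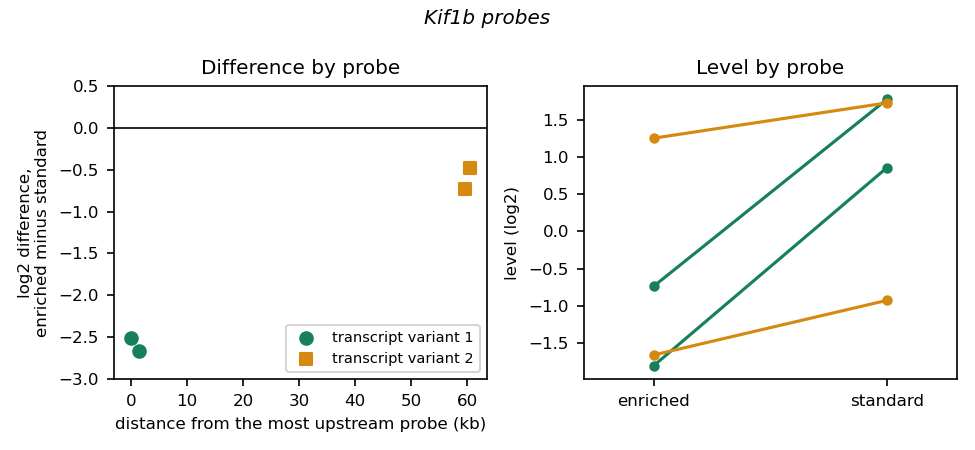
Kif1b probes by transcript variant. On the left, the log2 difference (enriched minus standard) against the distance along the gene from the most upstream probe in kb, and on the right, the level of each probe in the 2 pools. The 2 upstream probes of variant 1 differ by -2.51 and -2.66, the 2 downstream probes of variant 2 by -0.73 and -0.47.

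The remaining transport kinesins lay within 2-fold. Kif16b, a motor of early endosomes, was at -1.18 in the enriched and at -0.69 in the standard environment pool, a difference of -0.49 ± 0.25 (SD over 2 probes). Kif5a, a neuronal kinesin heavy chain, was at -1.44 in the enriched environment pool, with a difference of -0.44 from the standard environment pool over 1 measured probe. Neither difference reached 2-fold. Kif1a, which carries synaptic vesicle precursors, was at -2.89 in the enriched and at -2.66 in the standard environment pool, a difference of -0.23 from 1 measured probe. A second Kif1a probe read -6.06 in the enriched environment pool, where it was not well above background, and -4.70 in the standard environment pool, where it was, and with it the gene's difference was -0.80. Kif13a, a motor of recycling endosomes, was at -2.33 in the enriched and at -2.23 in the standard environment pool, and its difference of -0.10 came from 3 probes that lay on both sides of 0.

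Kif5b and the subunits of heterotrimeric kinesin-2 were also within 2-fold. Kif5b, the conventional kinesin heavy chain of most cells, was at 1.77 in the enriched and at 1.71 in the standard environment pool, a difference of 0.06 over 2 probes that read 0.05 and 0.06. Kif3a, a subunit of the heterotrimeric kinesin-2 that builds cilia, was at -0.53 in the enriched and at -0.64 in the standard environment pool, a difference of 0.11. Its partner Kif3b was at -1.69 in the enriched and at -2.03 in the standard environment pool, a difference of 0.34 ± 0.10 (SD over 2 probes). Kifap3, the third subunit, differed by -0.13. Kif3c, which pairs with Kif3a, differed by -1.64.

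Kif13b and Kif17 were close to background. Kif13b, a motor that carries phosphoinositide-bound and polarity proteins, was at -4.65 in the enriched and at -5.44 in the standard environment pool. Its difference of 0.79 was the highest of the transport class, but it came from 1 dim probe and was -0.04 with another background correction. Kif17, a motor of dendrites and cilia, passed background well in the standard environment pool alone. The probe that passed there was at -5.40, and it read -6.19 in the enriched environment pool, or 1.74-fold lower. The software error of this log2 difference of -0.80 was 0.50, so it is an uncertain reading and not a bound. With Kif17 at this reading the transport median was -0.44 over 13 genes.

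Neuron and Schwann cell markers were read because several transport kinesins are neuronal. Of 7 neuron markers 5 were measured, 4 of them lower, with a median of -0.74, and Snap25 and Syt1, which define synapses, were not well above background on either array. The neuron markers took 0.00181% of the summed signal in the enriched and 0.00221% in the standard environment pool. The 5 Schwann cell markers had a median of -0.83, with 4 lower. Their part in the transport kinesin values was not tested.

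The light chains and cargo adaptors of the transport kinesins were mostly lower. Of 21 measured genes 16 were lower and 5 higher, with a median of -0.42. The list also holds the motors Kifc2, at -0.22, and Kifc3, which are in these counts. Past 2-fold were 2 of 21 downwards and 2 of 21 upwards, beside 9.46% and 5.71% of all genes, and the downward share is near that of all genes. Fez1, an adaptor of conventional kinesin known from axons, differed by -1.84, and the scaffold Mapk8ip1 by -1.12. The mitochondrial adaptors Trak1 and Trak2 differed by -0.76 and -0.94. A further Trak1 probe, well above background in the standard environment pool alone, read -6.18 in the enriched and -2.28 in the standard environment pool. The membrane anchors Rhot1 and Rhot2 differed by -0.37 ± 0.31 (SD over 3 probes) and -0.59 ± 0.84 (SD over 2 probes). Those 2-fold or more higher were Kifc3, a minus-end directed motor of epithelial junctions, at 1.85, and the light chain Klc3, at 1.01. The other light chains, Klc1, Klc2 and Klc4, differed by -0.19, -0.88 and 0.31.

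Cytoplasmic dynein, the motor that runs the other way along microtubules, was divided evenly between the directions. Of 19 measured dynein and dynactin genes 10 were higher and 9 lower, with a median of 0.02 close to that of all genes. The furthest were the adaptors Bicd1 at 1.05 and Bicd2 at -0.81 and the heavy chain Dync1h1 at 0.60.

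**Figure D4:**
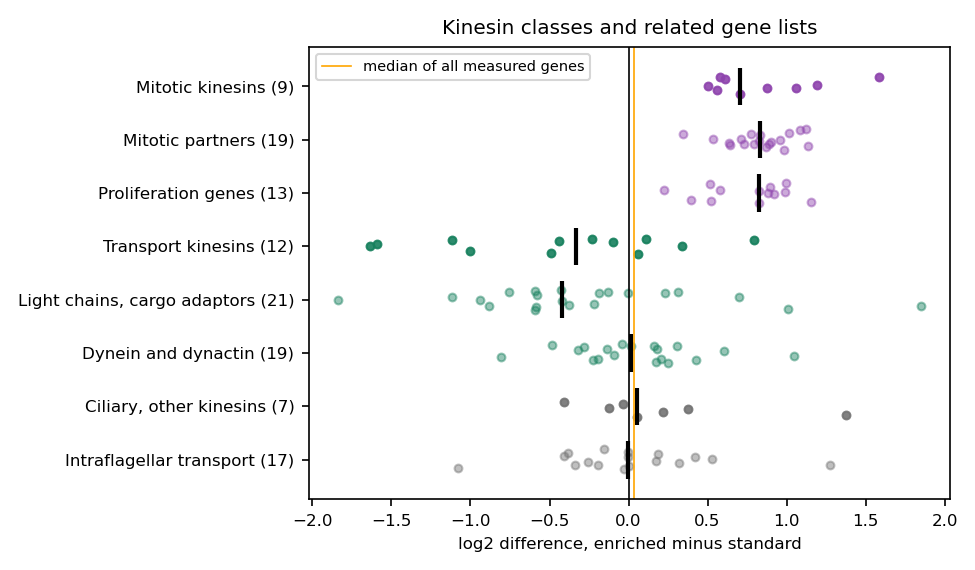
Log2 difference (enriched minus standard) of each measured gene of the kinesin classes and of related lists, 1 point per gene, with the list median as a black bar, the median of all measured genes in orange and the number of genes in brackets. Medians run from 0.71 to 0.83 in the upper 3 lists, lie at -0.34 and -0.42 for transport kinesins and their adaptors, and are near 0 for the other 3. The list of adaptors also holds the motors Kifc2 and Kifc3.

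The ciliary and other kinesins had a median difference of 0.06, with 4 of 7 higher and 3 lower. Kif12, which is known from kidney and bile duct epithelium, stood out from the class. It was at -0.74 in the enriched and at -2.12 in the standard environment pool, a difference of 1.38 ± 0.29 (SD over 2 probes) or 2.60-fold. A further probe, which the file describes as part of KIF12 under another name, was at -4.02 in the enriched and at -4.98 in the standard environment pool, a difference of 0.96. The 7 carcinoma epithelium markers were between 1.51 and 2.37 higher in the same pool, and their part in the Kif12 value was not tested.

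The rest of the class lay within 2-fold. Kif21b, which restrains microtubule growth, was at -1.91 in the enriched and at -2.28 in the standard environment pool, a difference of 0.38 ± 0.44 (SD over 3 probes). Its relative Kif21a was at -2.67 in the enriched and at -2.63 in the standard environment pool, a difference of -0.03 ± 0.47 (SD over 2 probes). Both had probes on either side of 0. Kif2a, which takes microtubules apart at spindle poles and in neurons, was at -0.90 in the enriched and at -0.96 in the standard environment pool, a difference of 0.06 ± 0.24 (SD over 3 probes). The difference of its mitotic relative Kif2c was 0.50. Kif7, a regulator of Hedgehog signalling at the ciliary tip, was at -2.07 in the enriched and at -2.28 in the standard environment pool, a difference of 0.22.

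The last members are also known from cilia or flagella. Kif24, which holds back cilium formation, was at -2.77 in the enriched and at -2.37 in the standard environment pool, a difference of -0.41 ± 0.17 (SD over 2 probes). Kif9, known from flagella, was at -3.54 in the enriched and at -3.42 in the standard environment pool, a difference of -0.12. Kif27, a motor gene of motile cilia, was not well above background on either array. The ciliated cell markers were mixed, with 3 of 4 measured genes lower and a median difference of -0.68. Ccdc39, Dnah5 and Dnaic1 differed by -1.20, -0.92 and -0.44, and Foxj1, a transcription factor of ciliated cells, by 2.75. Ccdc39 and Dnah5 were dim, at -5.29 and -5.11 in the enriched environment pool. Rsph1 was not well above background on either array.

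The precision of single values was limited by the arrays. Over the 52 member probes measured on both arrays, the scanner software's own error of a difference was 0.20 to 0.34 with a median of 0.20, which covers technical error only. Of the 17 kinesins with several measured probes, 13 had all probes on the same side of 0, and the median SD between probes was 0.22. The median SD over all 6608 genes with several measured probes was 0.17.

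The class medians kept their order under every processing that was tried. The median of the mitotic kinesins ran from 0.66 to 0.82 and that of the transport kinesins from -0.52 to -0.16 over the alternatives. That of the ciliary and other kinesins stayed between 0.00 and 0.22.

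**Figure D5:**
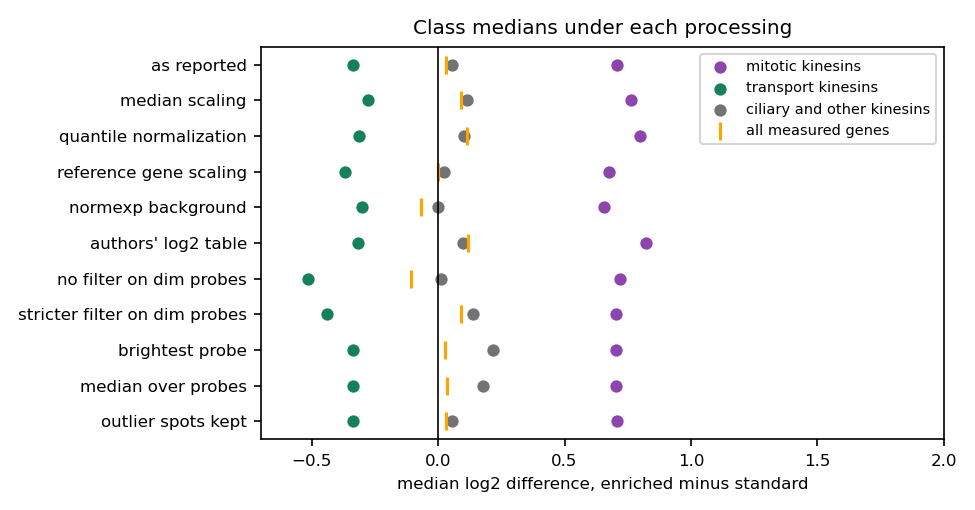
Median log2 difference (enriched minus standard) of the 3 kinesin classes and of all measured genes as reported and under 10 alternative processings. In each of these the mitotic medians lie at 0.66 or above and the transport medians at -0.28 or below. Wider classes, where the transport median is -0.16, are not drawn.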

How the data were processed

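Transcripts were measured in 2 pools of tumour RNA, 1 array each, both on 1 slide. The authors deposited scanner files with linear intensity values, and the submitters' processing notes name Agilent Feature Extraction 10.7.1.1. Spatial and multiplicative detrending were switched on, per the file headers. A correction that is subtracted, unlike a multiplicative one, weighs most on dim spots. A deposited table of log2 values, with scaling and centring not given in the sources used here, was used as an alternative.

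The main values were log2 processed intensity minus the array's 75th percentile, 984 for the enriched and 753 for the standard environment pool. Left out were 1639 control spots and the 70 and 66 spots marked as outliers on the enriched and the standard environment array. Probes well above background on both arrays were averaged per gene, giving 20852 genes. A gene bright on 1 array was set against the higher of its own signal and the lowest signal well above background on the other. All 31 members matched the GRCm38.p6 gene table by name. Every member was named, and of other lists the 3 genes furthest from 0 and those at least 2-fold apart. Further partner, adaptor, proliferation and tubulin genes were named after their values were seen. Members and lists were chosen with earlier results of these data known. With 1 array per group no test was run, and counts are read beside all genes. Steps were tested on simulated data. Python 3.11.15, pandas 2.3.3 and limma 3.58.1 were used.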

Additional observations from a re-analysis of the deposited data

How the results depend on the processing

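The alternatives were scaling to the array median, quantile normalization, scaling to reference genes, normexp background correction, the deposited log2 table, no filter and a stricter filter on dim probes, the brightest or median probe of a gene, keeping outlier spots, and wider classes with Kif2a as mitotic and Kif21a and Kif21b as transport. With normexp, 2 kinesins passed 2-fold upwards and 2 downwards, against 4 and 4 as reported, beside 3.21% and 6.34% of all genes, whose median was -0.07 against 0.03. Without a filter on dim probes the transport median was -0.52 and the gap between the medians 1.23, and with wider classes the gap was 0.82. Without the filter 5.81% of all genes were at least 2-fold higher and 13.2% lower. Of the 28 measured kinesins, 26 kept their direction under each of the 10 alternatives that gave them a value, and Kif13b, from -0.04 to 1.15, and Kif21a, from -0.10 to 0.30, did not. The 2-fold side changed for Kif1b, Kif1c, Kif5c, Kif13b, Kif14 and Kif18a. Chosen after the data were seen, Kif1b without variant 1 or variant 2 probes and the transport class without Kif13b left the transport median between -0.44 and -0.34, and without the variant 1 probes 3 kinesins passed 2-fold downwards. Variant 1 of Kif1b ran from -2.62 to -2.40 and variant 2 from -0.64 to -0.54. The causes of these shifts were not tested. No paired analysis was possible because there was 1 array per group. Dim probes near the lowest level well above background limit Kif13b, Kif17 and the dimmer probe of Kif14.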

Other observations

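Tubulins, the track on which kinesins run, were mixed. Of 11 measured tubulin genes 7 were higher and 4 lower in the enriched environment pool, with a median difference of 0.32. Tuba8, an alpha tubulin known from muscle and testis, differed by -6.49 and Tuba4a by -1.23, beside the difference of -8.15 in the skeletal muscle markers, whose part was not tested. Tubb2b, a beta tubulin of developing neurons, differed by 0.82 and Tuba1b, a general alpha tubulin, by 0.70. Intraflagellar transport and Bardet-Biedl genes, which serve the cilium, had a median of -0.01, with 7 of 17 higher. Ttc21b, an intraflagellar transport subunit, differed by 1.27 and Bbs7, a part of the ciliary cargo complex, by -1.08. Ift88, another such subunit, differed by 0.53.

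The remaining lists were near or below 0. The 13 measured reference genes used for an alternative scaling had a median of 0.03, but single ones lay far from it, with Sdha, a mitochondrial enzyme subunit, at -1.67, Pgk1, a glycolytic enzyme, at -1.15 and Hprt, a purine salvage enzyme, at 0.71. The 3 macrophage markers had a median of 0.13, and the 3 endothelial markers had one of -0.70 with all 3 lower.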
